A study of Mus musculus with 6 samples.

Results

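Windows named for the trypsinogen, amylase, Reg and kallikrein gene clusters were examined by methylated DNA immunoprecipitation on a tiling array (MeDIP-chip). Trypsinogens, pancreatic amylases and Reg genes encode secreted proteins of the exocrine pancreas, and kallikreins do so in part. Which genes of a family lie under the probes was not determined. The amylase family, for one, holds Amy1 besides the Amy2 copies. Members were all non-control probes whose start, on mouse build mm9, lay inside chr6:41250000-41480000 (trypsinogens, 61 probes), chr3:113200000-113450000 (amylases, 24 probes), chr6:78280000-78430000 (Reg genes, 41 probes) or chr7:51050000-51500000 (kallikreins, 169 probes). They came to 295 of the 174638 non-control probes, and 166822 other probes on autosomes served as the comparison. The rule used position alone and no measured value, but the clusters were proposed with earlier results of these data known. Pancreatic tissue came from 12-week-old mouse offspring, 3 with a glucose-intolerant dam and 3 with a dam of normal glucose tolerance, each on 1 array. The study addressed how the pancreatic methylome of offspring differs when the dam is hyperglycemic. How the dams became intolerant, the strain and the sex are not given in the sources used here, and separate animals or litters are not named in the labels. The tissue label could not be checked against expressed marker genes, since only DNA was measured.

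Acinar cells make up most of the pancreas and secrete digestive enzymes. Trypsinogens are the inactive forms of trypsin, amylases cut starch, and Reg genes encode small secreted lectin-like proteins that are induced on injury and inflammation. Kallikreins are serine proteases related to trypsin. Klk1, the tissue kallikrein, is made in the pancreas, whereas the mouse Klk1b copies are best known from the salivary gland and several of the other Klk genes from skin or brain, so the kallikrein window, which holds 169 of the 295 members, is only in part one of acinar genes. In MeDIP an antibody against 5-methylcytosine enriches fragments, which are hybridised against untreated input DNA of the same sample. In mammals 5-methylcytosine lies mainly at CpG dinucleotides, and the pull-down grows with the number of methylated CpGs in a fragment as well as with the share of them that is methylated. A MeDIP ratio is therefore an enrichment and not a percentage of methylated molecules.

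The promoters of these families were poor in CpG. Promoter windows of 300 bases around a gene's start (RefSeq, build GRCm38.p6) were found for 47 of the 53 listed gene symbols and gave 50 windows. Their median was 2 CpGs, against 7 over all 32851 RefSeq promoters, and 92.0% of them held at most 5 CpGs, against 43.6% of all promoters. At least 1 CpG (the letters CG, the same on both strands) was present in 76.0% of the family promoters and in 94.6% of all promoters, although both sets had a median of 52.7% C and G. All symbols without a window were trypsinogens, of which 8 of 14 were matched. Of these 8 trypsinogen promoters 6 held no CpG and the highest count was 1. The 8 amylase promoters had a median of 3.5, the 6 Reg promoters a median of 1 and the 28 kallikrein promoters a median of 2. Klk8 stood apart with 23 CpGs, the one promoter of the 50 with more than 10, whereas 41.4% of all promoters had more than 10. One promoter per family, that of the first listed gene, is shown so that this scarcity can be read directly; capitals mark CpG. Prss1 (cationic trypsinogen) lies at chr6:41458680-41458979 on the plus strand, Amy2a5 (pancreatic amylase) at chr3:113258650-113258949 on the minus strand, Reg1 at chr6:78425733-78426032 on the plus strand and Klk1 at chr7:44225110-44225409 on the plus strand, each on GRCm38.p6.
Prss1: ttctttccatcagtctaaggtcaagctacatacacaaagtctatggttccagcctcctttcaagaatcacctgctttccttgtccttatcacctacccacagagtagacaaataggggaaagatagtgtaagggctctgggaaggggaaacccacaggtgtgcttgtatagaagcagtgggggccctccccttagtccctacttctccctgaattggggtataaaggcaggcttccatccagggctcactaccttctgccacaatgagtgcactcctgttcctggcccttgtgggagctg
Amy2a5: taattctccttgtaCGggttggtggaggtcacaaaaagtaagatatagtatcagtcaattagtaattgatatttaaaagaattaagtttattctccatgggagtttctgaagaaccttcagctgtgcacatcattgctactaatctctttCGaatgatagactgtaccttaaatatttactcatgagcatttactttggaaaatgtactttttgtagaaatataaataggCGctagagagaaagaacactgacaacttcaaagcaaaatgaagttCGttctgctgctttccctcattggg
Reg1: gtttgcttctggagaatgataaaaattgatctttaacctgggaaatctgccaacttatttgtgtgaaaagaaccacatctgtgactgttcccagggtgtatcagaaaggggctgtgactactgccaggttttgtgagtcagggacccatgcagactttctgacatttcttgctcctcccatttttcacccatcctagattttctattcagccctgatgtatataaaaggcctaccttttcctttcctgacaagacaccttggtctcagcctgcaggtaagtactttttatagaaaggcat
Klk1: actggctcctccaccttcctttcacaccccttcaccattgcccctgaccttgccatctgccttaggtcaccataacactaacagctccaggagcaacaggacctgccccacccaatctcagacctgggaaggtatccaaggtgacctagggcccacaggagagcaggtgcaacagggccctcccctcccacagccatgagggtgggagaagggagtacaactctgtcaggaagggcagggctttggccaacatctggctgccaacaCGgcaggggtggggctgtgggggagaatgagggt
Prss1 and Reg1 held no CpG in these windows, Klk1 held 1 and Amy2a5 held 4. The GRCm38.p6 windows were not moved onto mm9 and the probes carry coordinates but no gene names, so no tile is assigned to a gene here. In the RefSeq order the 4 stretches held 12 trypsinogen, 7 amylase, 6 Reg and 26 kallikrein genes and 0 other protein-coding genes. Genes not typed as protein-coding lay among them: 36 in the trypsinogen, 1 in the amylase, 1 in the Reg and 14 in the kallikrein stretch. These stretches reach from the first to the last listed gene and are not the probe windows. Trypsinogen promoters started from chr6:40999430 (Gm2663) to 41521526 (Prss2) on GRCm38.p6, farther apart than the ends of the mm9 window. A window may thus hold only some of these genes, or others, and the CpG counts may not describe the probed DNA.

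**Figure D1:**
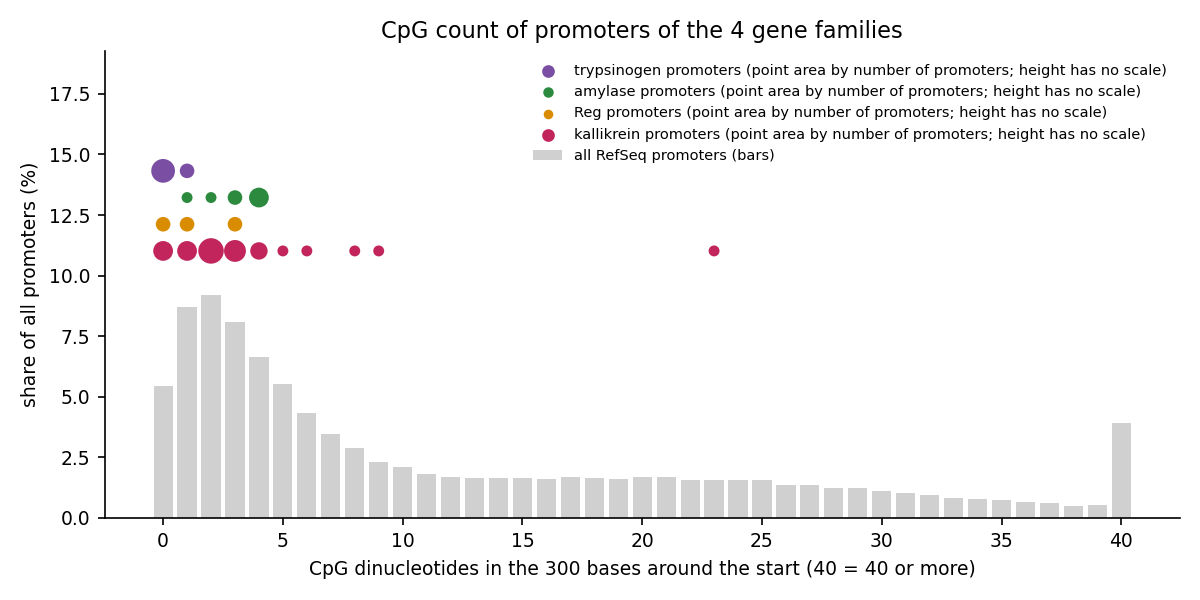
Number of CpG dinucleotides (x axis) in 300-base promoter windows; grey bars give the share of all 32851 RefSeq promoters (y axis, %), and coloured points mark the promoters of the 4 families, with the area by number of promoters and no scale in height. The family promoters lie at 9 CpGs or fewer, apart from Klk8 at 23.

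The array covered the clusters in 40 short tiles of 2 to 12 probes, with a median of 8. The quantity used is the log2 ratio of MeDIP over input signal, centred so that each array's median non-control probe is at 0. A probe was kept where its input signal was well above background on all 6 arrays. This held for 196 of the 295 member probes (66.4%), close to the 66.7% of other autosomal probes, but it differed between clusters: 25 of 61 trypsinogen, 11 of 24 amylase, 20 of 41 Reg and 140 of 169 kallikrein probes were kept. A probe was tested where it also had at least 2 values in each group, which left 195 members. A run is a stretch of at least 3 kept probes whose starts lay at most 500 bp apart; there were 31 runs holding 152 member probes, and runs are numbered along the chromosome within each cluster. Arrays differed in precision: input was well above background at 71.0 to 78.7% of probes on the glucose intolerance arrays, against 85.5 to 92.4% on the normal tolerance arrays. The 3 glucose intolerance arrays shared a scan time, normal tolerance array 1 had another, and normal tolerance arrays 2 and 3 shared one more. The red photomultiplier was at 359 V for the glucose intolerance arrays, against 394 and 421 V for the normal tolerance arrays, so scan and group cannot be told apart in any group difference below.

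All 4 clusters were, in the mean of the 6 arrays, less enriched than the other autosomal probes. The median kept member probe lay at -0.71, -0.52 and -0.67 log2 units relative to theirs on glucose intolerance arrays 1 to 3, against -0.75, -0.64 and -0.54 on normal tolerance arrays 1 to 3. Every array was thus on the same side of 0, and the groups overlapped. The mean was -0.64 ± 0.10 in glucose intolerance offspring and -0.64 ± 0.11 in normal tolerance offspring (SD, n = 3 each), a difference of 0.01. Probes with a mean ratio under -1 made up 38.3% of the kept members and 19.8% of the other kept autosomal probes, whereas probes over 1 made up 3.06% of members and 12.8% of the others. Of the 75 members under -1, 59 were among the 140 kept kallikrein probes, so the pooled share is mainly theirs. The rest were 5 of 11 amylase, 6 of 25 trypsinogen and 5 of 20 Reg probes. The trypsinogen and Reg shares were thus nearer to that of the other autosomal probes. Members over 1 were 4 kallikrein and 2 amylase probes, and the amylase share, 18.2%, was above that of the others. The level of a cluster is a score over members that were chosen with earlier results of these data known, so it is given without a p.

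**Figure D2:**
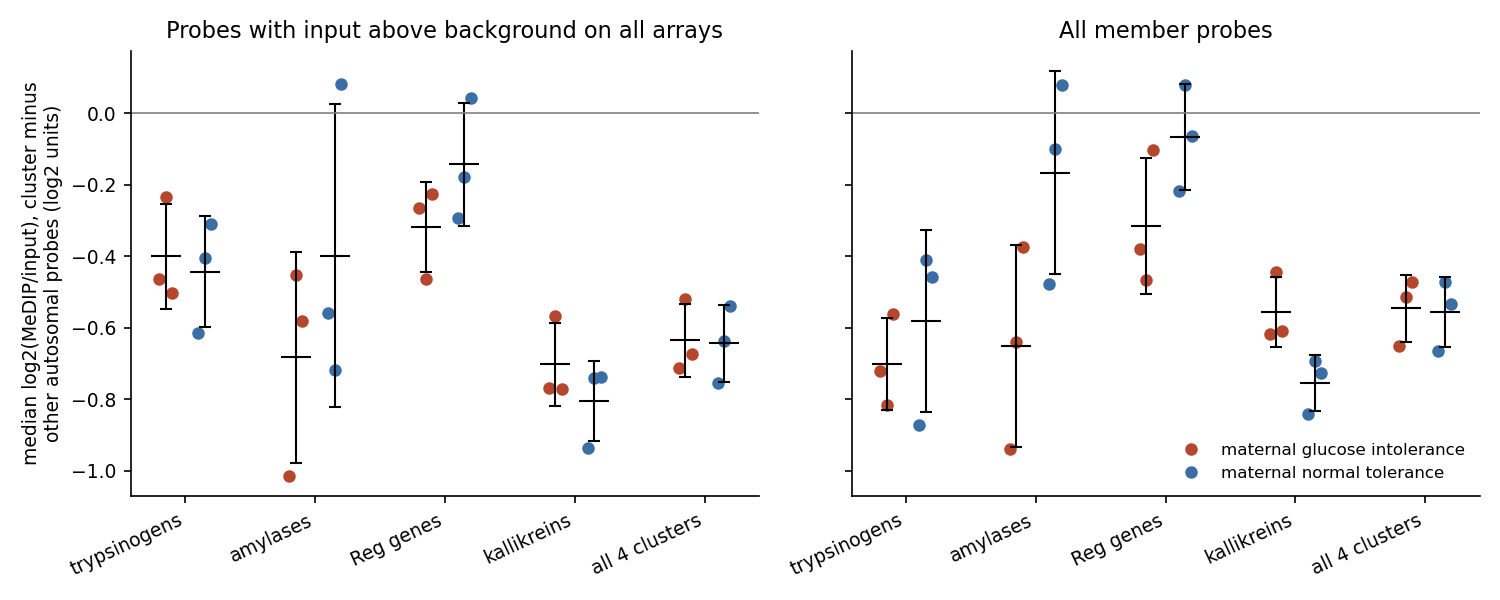
Median log2(MeDIP/input) of each cluster minus that of the other autosomal probes (y axis, log2 units), 1 point per array, with the mean and SD of each group of 3 arrays; glucose intolerance left, normal tolerance right in each pair. The left panel uses probes with input above background on all arrays and the right panel all member probes; trypsinogens and kallikreins lie below 0 on all 6 arrays in both.

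The kallikreins had the lowest level of the 4 clusters in the mean over arrays. They lay at -0.77, -0.57 and -0.77 log2 units relative to other autosomal probes on the glucose intolerance arrays, against -0.94, -0.74 and -0.74 on the normal tolerance arrays. The mean was -0.70 ± 0.12 in glucose intolerance offspring and -0.81 ± 0.11 in normal tolerance offspring (SD, n = 3 each), with overlapping arrays and a difference of 0.10. Over all 169 probes, dim input included, the groups did not overlap, at -0.56 ± 0.10 in glucose intolerance offspring and -0.75 ± 0.08 in normal tolerance offspring (SD, n = 3 each), a difference of 0.20, whereas with both channels above background the difference was -0.035. Kallikrein input was above background at 84.0 to 90.5% of the 169 probes on the glucose intolerance arrays, against 95.9 to 99.4% on the normal tolerance arrays, and the part of this in the difference was not tested. Between cluster medians the input channel stood farther from other autosomal probes than the MeDIP channel did. Kallikrein input signal was brighter than that of other autosomal probes by 0.55 ± 0.09 in glucose intolerance offspring and by 0.57 ± 0.11 in normal tolerance offspring, whereas the MeDIP signal differed from theirs by only -0.16 ± 0.21 in glucose intolerance offspring and -0.02 ± 0.07 in normal tolerance offspring (log2 units, SD, n = 3 each). Single runs differed in this. Kallikreins 9, the lowest run, had input at 0.63 and MeDIP at -1.16 in glucose intolerance offspring, against 0.78 and -1.42 in normal tolerance offspring. Kallikreins 13 had input at 2.17 and MeDIP at 0.79 in glucose intolerance offspring, against 1.96 and 0.70 in normal tolerance offspring. The part of bright input in the low ratio was not tested.

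The trypsinogen level was -0.46, -0.23 and -0.50 log2 units on the glucose intolerance arrays, against -0.61, -0.40 and -0.31 on the normal tolerance arrays. The 6 arrays were all below 0, and the groups overlapped, at -0.40 ± 0.15 in glucose intolerance offspring and -0.44 ± 0.16 in normal tolerance offspring (SD, n = 3 each). Here both channels were dim: relative to other autosomal probes input lay at -0.47 and MeDIP at -0.95 log2 units in glucose intolerance offspring, against -0.76 and -1.44 in normal tolerance offspring. Only 72.0 to 88.0% of kept trypsinogen probes had MeDIP signal well above background on an array, against 92.6 to 98.1% of other kept autosomal probes. When each dim MeDIP spot was set no lower than the array's lowest signal well above background (spots raised), the mean trypsinogen level was -0.39, against -0.42 without this step. Over all 61 probes it was -0.64.

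The amylase probes were few and widely spread. Their level was -1.01, -0.45 and -0.58 log2 units on the glucose intolerance arrays, against -0.56, -0.72 and 0.08 on the normal tolerance arrays. The difference of -0.28 was smaller than the SD of either group, at -0.68 ± 0.29 in glucose intolerance offspring and -0.40 ± 0.42 in normal tolerance offspring (SD, n = 3 each). The amylase level also depended on which probes were used: it was 0.14 where both channels had to be above background, and -0.11 against the 17 kept probes within 1 Mb of the window.

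The Reg genes were nearest to the other autosomal probes. Their level was -0.27, -0.46 and -0.23 log2 units on the glucose intolerance arrays, against -0.29, -0.18 and 0.04 on the normal tolerance arrays. Normal tolerance array 3 was the one array above 0, and the groups overlapped, at -0.32 ± 0.13 in glucose intolerance offspring and -0.14 ± 0.17 in normal tolerance offspring (SD, n = 3 each). Against the 10 kept probes within 1 Mb the Reg level was 0.45, so it was not lower than its immediate surroundings. Against their own flanks kallikreins lay at -0.65 (439 kept probes within 1 Mb) and trypsinogens at -0.34 (188 probes).

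Tested one by one, member probes were below the array median more often than probes of the whole array. With limma across all 113885 tested probes and Benjamini-Hochberg adjusted p under 0.05, 122 of the 195 members (62.6%) were below the median, where 37.1% of all tested probes were, and 35 (17.9%) were above it, where 38.5% of all were. The kallikreins gave 93 of 139 below and 20 above. Trypsinogens had 14 of 25 below and 5 above, amylases 6 of 11 below and 5 above, and Reg genes 9 of 20 below and 5 above. Among runs the pattern was sharper: 26 of 31 (83.9%) were below the median, where 39.6% of all 18563 runs were, and 2 were above, where 34.8% of all were. The runs below were 19 of 20 kallikrein, 3 of 5 trypsinogen, 3 of 4 Reg and 1 of 2 amylase runs. Neighbouring probes of a run can read the same DNA fragments, so they are not independent: neighbouring members correlated at r = 0.21 to 0.39 on the 6 arrays, over 123 pairs. Without the input filter 35 of the 38 tiles with at least 3 probes averaged below 0, and 57.7% of 21566 other autosomal tiles of that size did. Counting also the pair of 2-probe kallikrein tiles, these were 8 of 8 trypsinogen, 2 of 3 amylase, 5 of 5 Reg and 20 of 24 kallikrein tiles.

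**Figure D3:**
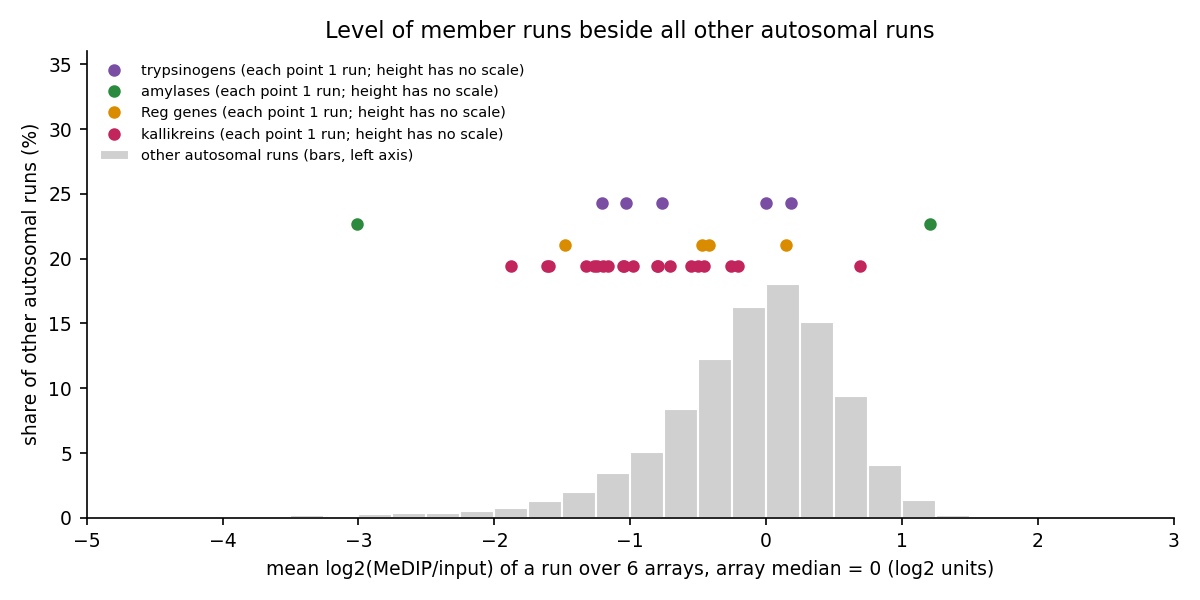
Mean log2(MeDIP/input) of each run over 6 arrays (x axis, log2 units, array median at 0); grey bars give the share of other autosomal runs (y axis, %), and each coloured point is 1 of the 31 member runs, with no scale in height. Most member points lie left of 0, from -3.01 for amylases 1, and the highest is amylases 2 at 1.21.

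The 2 amylase runs lay at opposite ends of the array's range. Amylases 1 (chr3:113278188-113278973, 3 probes) had ratios of -3.76, -2.77 and -2.95 in glucose intolerance offspring, against -3.43, -2.81 and -2.33 in normal tolerance offspring. All 6 values were far below the array median, and the level of -3.01 (SE 0.16, limma adjusted p = 1.03e-05) exceeded that of 0.532% of other autosomal runs. Relative to other autosomal probes its input signal was at 1.37 and its MeDIP signal at -1.98 log2 units in glucose intolerance offspring, against 1.55 and -1.36 in normal tolerance offspring. The mean over all 7 probes of its tile, with 2 kept probes outside the run and 2 of dim input, was -1.65. Amylases 2 (chr3:113332583-113333022, 3 probes) had ratios of 1.39, 1.12 and 1.32 in glucose intolerance offspring, against 1.50, 0.79 and 1.11 in normal tolerance offspring. It was enriched on every array, at a level of 1.21 (SE 0.09, limma adjusted p = 1.9e-05), higher than 99.6% of other autosomal runs. The mean over all 9 probes of its tile, with 1 kept probe outside the run and 5 of dim input, was 0.03. Neither run passed the test of the group difference (differences -0.30, SE 0.33, and 0.14, SE 0.19; limma adjusted p = 0.655 and 0.725). Leaving out 1 array moved the amylases 1 difference to between -0.59 (without normal tolerance array 1) and -0.00052 (without glucose intolerance array 1). Amylase genes, like the trypsinogen and Klk1b genes, are close copies of each other, and a probe of one copy may also hybridise with DNA of others.

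The lowest trypsinogen run was trypsinogens 5 (chr6:41471252-41471971, 3 probes), with ratios of -1.37, -1.03 and -1.57 in glucose intolerance offspring, against -1.66, -0.99 and -0.64 in normal tolerance offspring. Its level was -1.21 (limma adjusted p = 7e-05), or -0.89 with dim MeDIP spots raised. It rested on 1 probe, Ch_220697_0125904, at -3.11 with MeDIP well above background on 1 of 6 arrays, and the other 2 probes lay at -0.18 and -0.34 (Ch_220697_0125905 and Ch_220697_0125907). Trypsinogens 1 (chr6:41251612-41252497, 4 probes) was at -1.03 (limma adjusted p = 5.92e-05). It too rested on 1 probe, Ch_220697_0125851, at -2.87 with MeDIP well above background on no array, and its other 3 probes (Ch_220697_0125852 to Ch_220697_0125854) lay between -0.48 and -0.36. Trypsinogens 2 (chr6:41264430-41265121) was at -0.77. With dim MeDIP spots raised trypsinogens 1 was at -0.61 and trypsinogens 2 at -0.76, so their order turned. Trypsinogens 3 and 4, in the middle of the window, did not pass the test against the array median, at 0.00 and 0.18 (limma adjusted p = 0.997 and 0.119). Without the input filter trypsinogens 4 was called below the median, at -0.50 (limma adjusted p = 0.000187), and the tile of trypsinogens 3 averaged -0.69. A tile between trypsinogens 2 and 3 (chr6:41302804-41304404), with too few kept neighbours for a run, averaged -1.33 over its 6 probes.

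Reg genes 2 (chr6:78330132-78331075, 3 probes) was the lowest Reg run, with ratios of -2.04, -1.25 and -1.22 in glucose intolerance offspring, against -1.80, -1.54 and -1.02 in normal tolerance offspring. Its level was -1.48 (limma adjusted p = 3.19e-05), or -0.84 with dim MeDIP spots raised, and 6 of 9 MeDIP spots were well above background in glucose intolerance offspring, against 5 of 9 in normal tolerance offspring. Reg genes 4 (chr6:78418374-78419510), the longest with 5 probes, was at 0.15 and did not pass the test against the array median (limma adjusted p = 0.0724). Its call turned with the processing: it was below the median without the input filter (-0.23, limma adjusted p = 0.0287) and above it with normexp (0.15, limma adjusted p = 0.0148), with quantile normalization (0.17, limma adjusted p = 0.0378) and without normal tolerance array 1 (0.20, limma adjusted p = 0.0154).

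Nearly all kallikrein runs were low. The lowest was kallikreins 9 (chr7:51230433-51231891, 6 probes), with ratios of -1.87, -1.05 and -1.90 in glucose intolerance offspring, against -2.39, -1.90 and -2.15 in normal tolerance offspring. Its level of -1.88 (SE 0.12, limma adjusted p = 1.23e-05) exceeded that of 2.41% of other autosomal runs. It was -0.62 over those of its probes with both channels above background on all arrays. Runs 8 to 12, between chr7:51220845 and 51308144, all lay between -1.88 and -1.04. Kallikreins 1 (chr7:51051661-51053384), with 9 probes the longest, was at -0.55 and held between -0.66 and -0.48 on all 6 arrays. The exception was kallikreins 3 (chr7:51079979-51080922, 4 probes), which was enriched at 0.73, 0.48 and 0.57 in glucose intolerance offspring, against 0.93, 0.76 and 0.66 in normal tolerance offspring. Its level of 0.69 (limma adjusted p = 3.81e-05) stood beside that of kallikreins 2 (chr7:51078614-51079288), which was -0.70 on the same tile. Where runs could span gaps up to 1000 bp, the run at this place was at -0.04. Some kallikrein tiles that formed no run averaged above 0 over all their probes. They were chr7:51065526-51065825 at 0.24, chr7:51066365-51067298 at 0.35, chr7:51187841-51188255 at 0.72 and chr7:51189033-51189488 at 0.57. The dropped kallikrein probes did not share the low level: 29 dim-input probes had a median of 0.18, against -0.72 for the 140 kept ones.

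**Figure D4:**
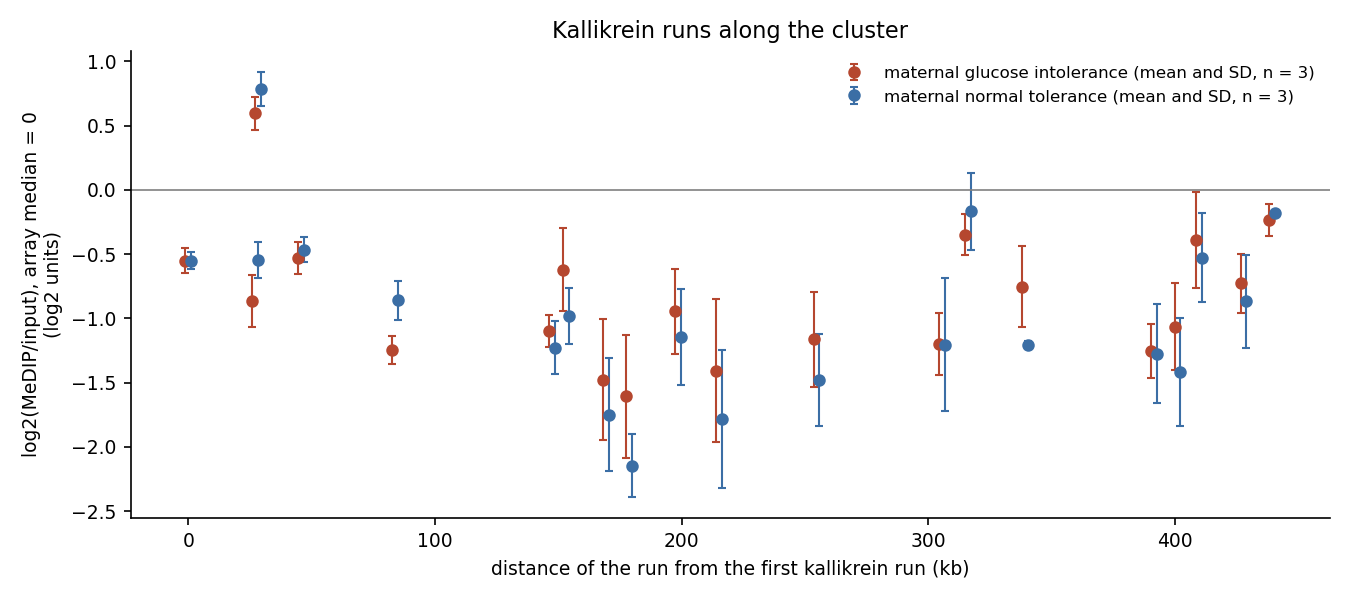
Log2(MeDIP/input) of the 20 kallikrein runs (y axis, log2 units, array median at 0) by distance from the first run (x axis, kb); points are group means and bars the SD of 3 arrays, with glucose intolerance drawn left of normal tolerance. All runs but kallikreins 3, near 28 kb, have group means below 0, with the lowest near 179 kb.

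No member differed between the groups at an adjusted p under 0.05. Of 195 member probes 0 were called (limma, Benjamini-Hochberg), where 0.000878% of all tested probes were, and of 31 member runs 0 were called, where 0% of all runs were. At an unadjusted p under 0.05, 17 member probes (8.72%) were higher in glucose intolerance offspring, where 10.4% of all were, and 14 (7.18%) were lower, where 5.56% of all were. For runs these counts were 2 higher, where 13.3% of all were, and 2 lower, where 2.51% of all were. In 5 of the 31 runs the groups did not overlap, where 22.2% of all runs did not. The median difference, glucose intolerance minus normal tolerance, was 0.12 over member probes and 0.13 over all tested probes, and it was 0.02 over member runs and 0.12 over all runs. Differences above 0 made up 60.5% of member probes and 62.9% of all tested probes, and 58.1% of member runs and 70.9% of all runs. The array-wide shift, 0.12 over runs and 0.13 over probes, is part of the run and probe differences below. Differences in cluster level are taken relative to other autosomal probes.

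The run with the lowest p in the clusters was Reg genes 3 (chr6:78354076-78354719, 3 probes). Its ratios were -0.61, -1.03 and -0.63 in glucose intolerance offspring, against -0.10, -0.08 and -0.07 in normal tolerance offspring. The groups did not overlap, and all 3 probes were lower in glucose intolerance offspring. The difference was -0.67 (SE 0.14, limma adjusted p = 0.210, the lowest of the 31 member runs by unadjusted p), or -0.79 relative to the median of all runs. Relative to other autosomal probes the MeDIP signal was at -2.02 and the input signal at -1.08 log2 units in glucose intolerance offspring, against -0.92 and -0.78 in normal tolerance offspring, and all MeDIP spots of the run were well above background. The difference passed the adjusted threshold with normexp background correction (-0.38, limma adjusted p = 0.0366) and in the authors' deposited table (-0.62, limma adjusted p = 0.0236). It did not with scan time as a random block (limma adjusted p = 0.858).

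Among kallikreins the run with the lowest p for a lower ratio was kallikreins 5 (chr7:51135268-51135716, 3 probes). It had -1.15, -1.37 and -1.22 in glucose intolerance offspring, against -0.69, -0.99 and -0.90 in normal tolerance offspring. The groups did not overlap (difference -0.39, SE 0.13, limma adjusted p = 0.259), but without the input filter the difference was -0.012 (limma adjusted p = 0.971). Its input signal stood 3.15 log2 units above other autosomal probes in glucose intolerance offspring, against 1.95 in normal tolerance offspring. The MeDIP signal of this run was also higher in glucose intolerance offspring, at 1.71, against 1.03 in normal tolerance offspring. Kallikreins 15 (chr7:51390843-51391715, 5 probes) went the other way, with -1.01, -0.40 and -0.86 in glucose intolerance offspring, against -1.23, -1.22 and -1.17 in normal tolerance offspring (difference 0.45, SE 0.17, limma adjusted p = 0.276). This difference passed with normexp and in the authors' deposited table (0.40 and 0.52, limma adjusted p = 0.0413 and 0.0399), but not with scan time as a random block (0.46, limma adjusted p = 0.858). Without glucose intolerance array 2 it was 0.28, and leaving out any other single array gave up to 0.58. The other 2 runs without overlap were kallikreins 2, with a difference of -0.32, and kallikreins 9, with one of 0.54 (limma adjusted p = 0.329 and 0.325). On kallikreins 9 and 15 glucose intolerance array 2 was the least low, as it was on further runs such as kallikreins 8, 11 and 12. Over other kept autosomal probes the SD of the ratio was smallest on this array, at 1.03. It was largest on normal tolerance array 1, at 1.51. The part of this array-wide spread in the differences was not tested. Trypsinogens 3 (chr6:41342133-41342606) had -0.04, 0.42 and 0.24 in glucose intolerance offspring, against -0.15, -0.45 and -0.03 in normal tolerance offspring. Those groups overlapped (difference 0.42, limma adjusted p = 0.290), and without the input filter the difference was -0.13. The lowest p for a lower trypsinogen ratio was that of trypsinogens 2 (difference -0.27, limma adjusted p = 0.400), and Reg genes 1 (chr6:78320577-78321232) had that for a higher Reg ratio (difference 0.06, limma adjusted p = 0.897).

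**Figure D5:**
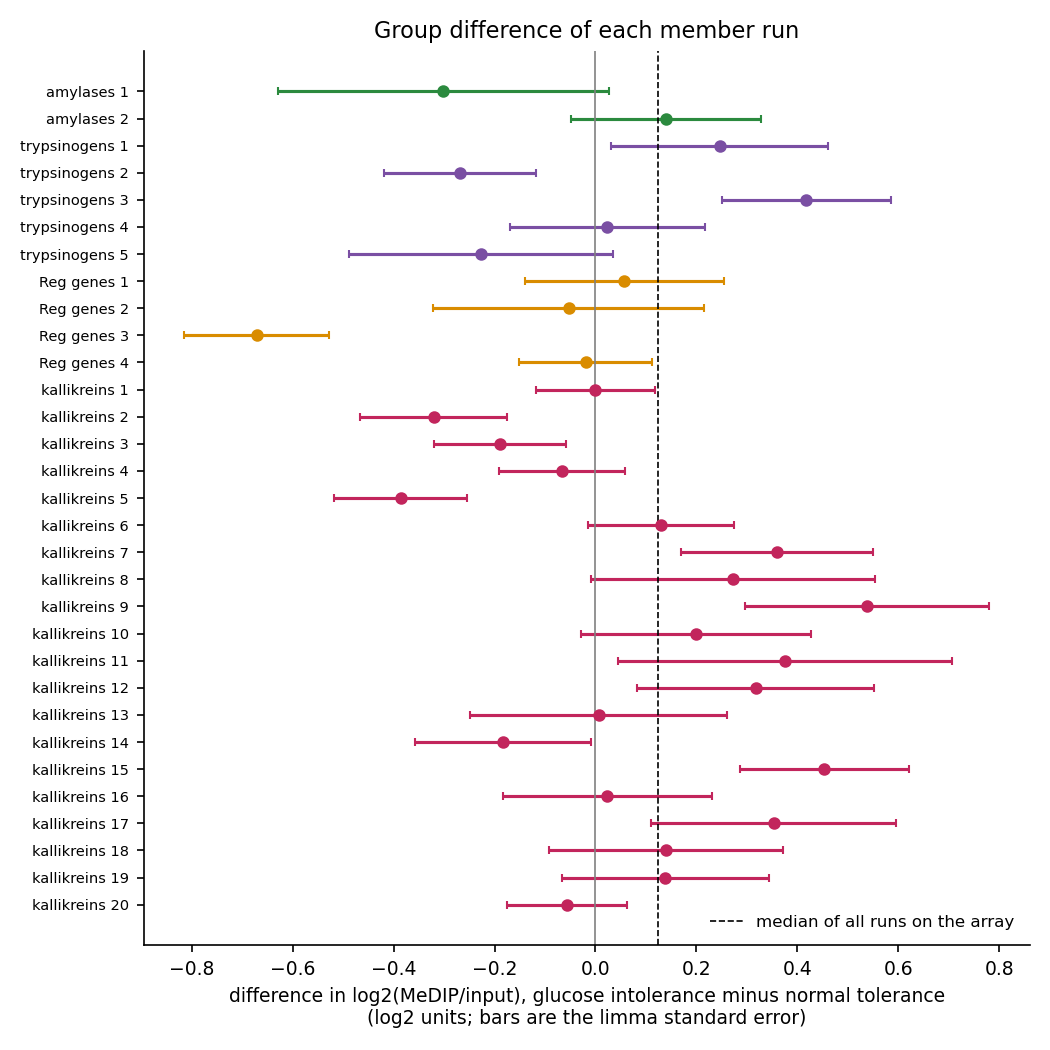
Difference in log2(MeDIP/input), glucose intolerance minus normal tolerance (x axis, log2 units), for each of the 31 member runs (y axis), with the limma standard error as bars and a dashed line at the median of all runs, 0.12. Reg genes 3 lies farthest left at -0.67 and kallikreins 9 farthest right at 0.54.

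Single probes were also set out by group difference. The 3 with the lowest p for a higher ratio were kallikrein probes. Ch_220697_0139500 (chr7:51391457-51391501), inside kallikreins 15, had -0.56, -0.13 and -0.60 in glucose intolerance offspring, against -1.77, -1.69 and -1.98 in normal tolerance offspring. The gap between the groups was larger than the spread within either (difference 1.38, SE 0.23, limma adjusted p = 0.105), and this probe passed the adjusted threshold under 6 of 17 other settings, one of them without normal tolerance array 1, at limma adjusted p = 0.0166 to 0.0462, whereas scan time as a random block gave 0.938. Ch_220697_0139499 (chr7:51391256-51391300) lay beside it, with a difference of 1.03 (limma adjusted p = 0.165), and Ch_220697_0139506 (chr7:51442340-51442387) had 1.13 (limma adjusted p = 0.135). The 3 with the lowest p for a lower ratio were 2 Reg probes and 1 amylase probe. Ch_220697_0128203 (chr6:78418783-78418828) had -0.04, -0.05 and -0.14 in glucose intolerance offspring, against 1.05, 0.82 and 0.52 in normal tolerance offspring (difference -0.88, limma adjusted p = 0.157). Ch_220697_0128189 (chr6:78354660-78354719), of Reg genes 3, had a difference of -1.06 (limma adjusted p = 0.168). Ch_220697_0101688 (chr3:113278188-113278244), of amylases 1, had a difference of -1.55 (limma adjusted p = 0.158), and its MeDIP spot was well above background on 1 of 3 glucose intolerance arrays and on 3 of 3 normal tolerance arrays. Of these 6 probes all but Ch_220697_0128203 passed in the authors' deposited table, at limma adjusted p = 0.0272 to 0.0439.

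The extremes of level were shared by both groups. The lowest mean ratio was that of the trypsinogen probe Ch_220697_0125868 (chr6:41303635-41303693), with -4.50, -2.76 and -4.52 in glucose intolerance offspring, against -5.16, -3.57 and -3.99 in normal tolerance offspring. On none of the 6 arrays was its MeDIP spot well above background, so its mean of -4.09 has only a bound on the MeDIP side, and with MeDIP raised it was -2.39, which is not the lowest. The kallikrein probe Ch_220697_0139457 (chr7:51230788-51230847), of kallikreins 9, averaged -4.00, or -3.82 with MeDIP raised, with MeDIP well above background on 2 of 3 glucose intolerance arrays and on 1 of 3 normal tolerance arrays. Ch_220697_0139432 (chr7:51199506-51199551) averaged -3.48 over the 4 arrays on which it was not marked as an outlier, with -3.45 and -3.57 in glucose intolerance offspring, against -3.64 and -3.25 in normal tolerance offspring. Its MeDIP signal was above background on all 6 arrays, so its low ratio is measured on both sides. The highest were the amylase probes Ch_220697_0101701 (chr3:113332978-113333022, mean 1.50) and Ch_220697_0101700 (chr3:113332788-113332832, mean 1.22), both of amylases 2, and the kallikrein probe Ch_220697_0139535 (chr7:51472262-51472306, mean 1.33). Each of the 3 was above 0 on all 6 arrays.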

How the data were processed

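MeDIP (Cy5) and input (Cy3) DNA of each sample were hybridised together on 1 array, 6 arrays in all, per the labels' protocols. The deposited scanner files hold spot intensity values from Agilent Feature Extraction 11.0.1.1 on build mm9; the processed intensity is background-subtracted and dye-normalized by the authors' scanner software, per the file headers. Their deposited log10 ratio lay within 0.01 log2 units of the ratio used here for 96.7% of spots. The authors' deposited series table is on a log2 scale with array medians of 0.027 to 0.038; its background treatment and normalization are not given in the sources used here. It correlated with the scanner ratios at r = 0.882 to 0.922, so its direction is also MeDIP over input, and served as an alternative.

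Here log2 of processed Cy5 over Cy3 was centred on each array's median of non-control probes, without loess or quantile steps; 5827 control spots and outlier spots (1.77%) were left out, and 58723 probes (33.6%) with dim input were filtered. Probes and runs were fitted over the whole array with limma 3.58.1 in R 4.3.3 (lmFit, eBayes) with Benjamini-Hochberg adjustment; runs used the mean of their probes. The fit was tested on simulated data. Channel signals of clusters are differences of array medians, on the log2 scale. Those of runs are the mean over the run's probes minus the array median of other kept autosomal probes. Named runs were, in each cluster, the lowest, the highest, the longest and those with the lowest p in each direction; named probes were the 3 of lowest p for a higher and for a lower ratio, and the 3 lowest and 3 highest levels. Members and lists were chosen with earlier results of these data known. The labels do not say that replicates were separate animals, so a p-value here reflects only how far these 3 and 3 samples scatter, which may be technical. The number of arrays limits the precision. Slide names were not used here, and scan time took their place; normexp was run on median spot signals. Both were chosen after seeing the data. Promoters, matched by symbol, are RefSeq sequences of GRCm38.p6.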

Additional observations from a re-analysis of the deposited data

How the results depend on the processing

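Over 19 settings the level of trypsinogens, kallikreins and all 4 clusters together stayed below other autosomal probes, and that of amylases and Reg genes did in 18 of 19. Levels that moved by more than the spread between arrays were: without the filter on dim input, trypsinogens -0.64; with both channels above background, amylases 0.14; with normexp, trypsinogens -0.28, kallikreins -0.48 and all 4 clusters -0.40; in the authors' deposited table, kallikreins -0.53 and all 4 clusters -0.49; against the same chromosome, kallikreins -0.60; and within 1 Mb, amylases -0.11, Reg genes 0.45 and all 4 clusters -0.52. Leaving out each array in turn gave levels of -0.46 to -0.38 for trypsinogens, -0.67 to -0.45 for amylases, -0.29 to -0.18 for Reg genes, -0.79 to -0.72 for kallikreins and -0.66 to -0.62 for all 4 clusters. The group difference in level was -0.12, -0.14 and -0.11 for trypsinogens without the filter, in the deposited table and with means over probes, 0.15 for amylases with loess, -0.40 for Reg genes within 1 Mb and -0.035 for kallikreins with both channels above background. Leaving out 1 array gave -0.04 to 0.11 for trypsinogens, -0.44 to -0.04 for amylases, -0.25 to -0.08 for Reg genes, 0.03 to 0.14 for kallikreins and -0.05 to 0.06 for all 4 clusters.

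The limma count of member probes with a group difference was 0, but 1 with both channels above background, 2 with quantile normalization, 9 with normexp, 13 in the deposited table and 0 to 4 leaving out 1 array (4 without normal tolerance array 1, which leaves each group in a single scan). With the replicate number as a block it was 13 probes and 1 run, Reg genes 3 (limma adjusted p = 0.0287). Arrays were not treated as pairs, since same-numbered arrays correlated at r = 0.57, 0.54 and 0.04 over runs, although each glucose intolerance array correlated best with the normal tolerance array of its own number. Runs called were 4 with normexp and 3 in the deposited table, and 0 leaving out any array. At an unadjusted p under 0.05 the 31 member probes became 58 without the filter, 55 with normexp, 57 in the deposited table, 11 with scan time as a random block and 15 to 34 leaving out 1 array. The 4 runs became 12, 13 and 1 with normexp, in the deposited table and with scan as a block (correlation within scans 0.38 over runs), 7 with quantile normalization, 10 with the replicate block, 2 with trended robust eBayes and 1 to 7 leaving out 1 array. Probes called above the array median were 56 without the filter, 19 with loess, 23 with scan as a block and 25 to 33 leaving out 1 array. Those below were 93 to 165 over 15 settings, and 107 to 118 leaving out 1 array.

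Signs turned for these named runs. Without the filter trypsinogens 4, Reg genes 4 and kallikreins 3 had levels of -0.50, -0.23 and -0.030, and the trypsinogens 3 difference was -0.13. With normexp the trypsinogens 2 and amylases 1 differences were 0.0086 and 0.45. The Reg genes 1 difference was -0.025 when centred on other autosomal probes, -0.17 with loess, and -0.080, -0.0027 and -0.032 without glucose intolerance array 1, glucose intolerance array 2 and normal tolerance array 2, with a highest value of 0.26 leaving out 1 array. Without the last the amylases 2 difference was -0.032, with a highest value of 0.32 leaving out 1 array. With gaps up to 1000 bp kallikreins 3 was at -0.043. The cause of these changes was not tested. Low MeDIP signal limits the lowest ratios.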
